A study of Mus musculus with 20 samples.

Results

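The livers of 5 male C57BL/6J mice given astaxanthin (CL + AX) were compared directly with the livers of 5 given vitamin E (CL + VE). The members were chosen by the supplement named in the sample titles, and they make up 10 of the 20 arrays of the series, 1 array per mouse. All 10 mice were wild type, were 7 weeks old when feeding began, and ate the CL diet for 12 weeks before a fast of 2 h. This diet is high in fat (60% of its calories), cholesterol (1.25%) and sodium cholate (0.5%), and the supplement made up 0.02% of it in both groups. The other 10 mice, 5 on CRF-1 normal chow (NC) and 5 on the CL diet with no supplement (CL), entered the comparison only in an alternative model of all 20 arrays and as levels beside it. A supplement leaves no transcript of its own, so no gene on the array tells which of the compounds a mouse had eaten. The tissue matched its label: the mean log2 signal of 17 hepatocyte markers lay between 12.90 and 13.02 on the 10 arrays, and that of 15 markers of pancreas, fat and muscle between 3.40 and 4.11.

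Nonalcoholic steatohepatitis joins fat storage in the liver with inflammation and scarring. Hepatocytes clear cholesterol as bile acids, which Cyp7a1 and Cyp8b1 make, and excess bile acid shuts these enzymes down. During inflammation, interleukins and NF-κB make hepatocytes release acute phase proteins, while chemokines draw in neutrophils and monocytes. Astaxanthin is a red xanthophyll carotenoid that is not a precursor of vitamin A, and vitamin E is a chain-breaking lipid antioxidant that the liver retains through the tocopherol transfer protein and breaks down through cytochromes of the P450 family. Both are given as antioxidants, and comparing them directly asks where the liver differs between the compounds on the same diet.

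Before any gene was compared, the arrays themselves differed between the groups. Median signals were 26.4 to 27.7 in CL + AX and 17.0 to 20.7 in CL + VE, with no overlap (exact permutation test over arrays, two-sided, p = 0.00794, the smallest that 5 against 5 allows; 0.0159 after Benjamini-Hochberg adjustment over 10 array measures). The log2 ratio of the 3' to the 5' probe sets of Actb, a measure of RNA and labelling quality, averaged 1.16 ± 0.070 (SD, n = 5) in CL + AX and 1.43 ± 0.082 in CL + VE (exact p = 0.00794), and the bacterial RNAs added before labelling averaged 7.80 ± 0.091 and 7.49 ± 0.21 on the log2 scale (exact p = 0.0159). In all, 7 of the 10 measures passed the adjusted p. Pairs of CL + VE arrays correlated with each other at 0.918 to 0.924, below pairs of CL + AX arrays at 0.933 to 0.938 and not above pairs from different groups at 0.921 to 0.930. CL + VE replicate 5 stood apart, with a log2 3'/5' ratio of the added Dap RNA of 2.26 against 0.99 to 1.16 in the other CL + VE arrays. The signals were therefore quantile normalized before the test, and the part of these array differences in the gene results was not tested. No label gives a labelling or scanning batch.

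**Figure D1:**
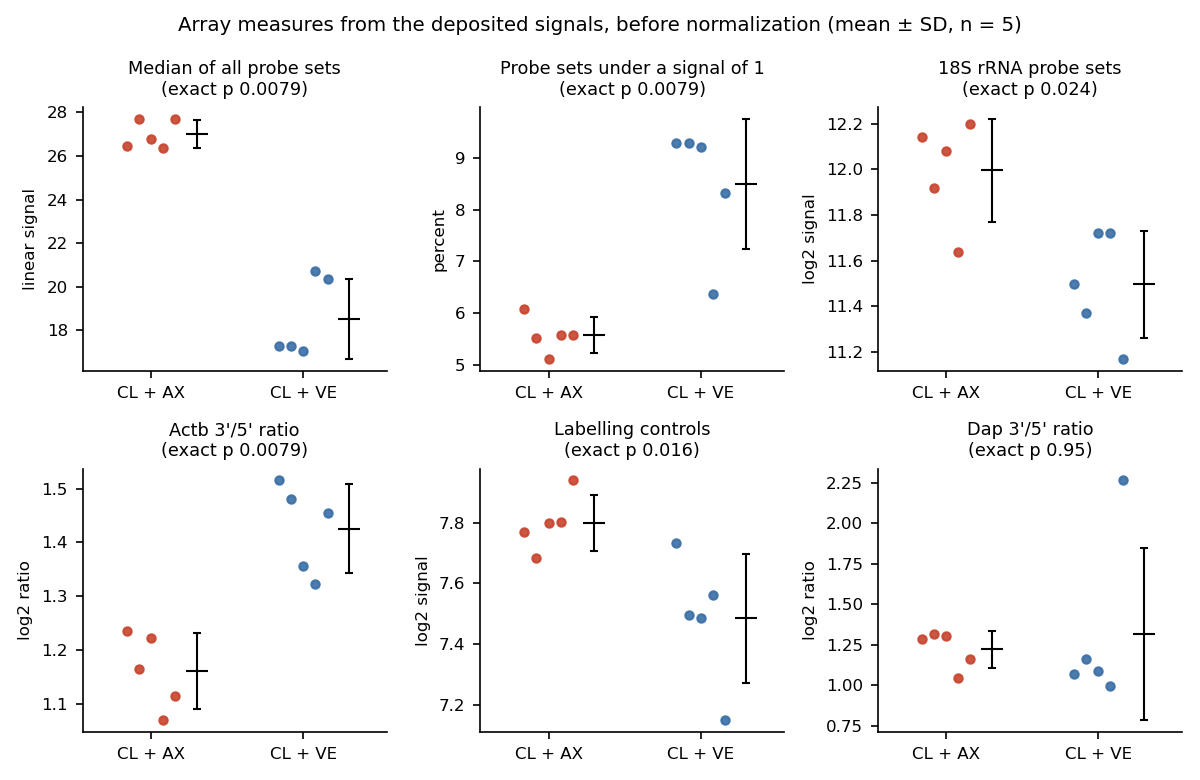
Measures of each array from the deposited signals, before normalization: the median signal (linear), the percent of probe sets under a signal of 1, the log2 signal of 18S rRNA and of labelling controls, and the log2 3'/5' ratios of Actb and Dap, for the 5 CL + AX (red) and 5 CL + VE (blue) arrays, with the mean ± SD beside each group. The CL + AX medians of 26.4 to 27.7 lie above all CL + VE medians, and CL + VE replicate 5 has the highest Dap ratio, 2.26.

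Few genes separated the 2 groups. Of 45037 probe sets, sets of short probes that are each designed to read a transcript, 24 passed an adjusted p of 0.05 in limma (0.0533%), 17 higher (0.0377%) and 7 lower (0.0155%) in CL + AX. Each gene was read from its brightest probe set that names it alone, and of 18193 genes 10 passed (0.055%), 6 higher (0.033%) and 4 lower (0.022%) in CL + AX. The 6 were Rps9, Apcs, Nap1l1, Tmed7, Elovl2 and Chic2, and the 4 were Sytl1, Noct, Rnf149 and Slc22a18. Without adjustment, 807 genes (4.44%) had a p under 0.05 with the higher mean in CL + AX and 1268 (6.97%) with the lower mean. Among the 11447 genes at or above the median signal the shares were 5.55% and 9.06%. The groups did not overlap for 177 genes higher (0.973%) and 287 lower (1.58%) in CL + AX, and for 2.12% of probe sets. Throughout, a fold change is the mean log2 signal in CL + AX minus that in CL + VE, its standard error (SE) comes from the limma fit, and the median SE of a gene was 0.207. The number of calls depends on the analysis: with all 20 arrays in 1 model 1 probe set passed and 0 genes did (with 4017 probe sets at an unadjusted p under 0.05), and with a variance prior that does not follow the signal 0 probe sets did (3772 at an unadjusted p under 0.05).

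Apcs rose in CL + AX relative to CL + VE. It encodes serum amyloid P component, a pentraxin that the mouse liver releases in the acute phase. Its log2 signal was 11.47, 11.19, 11.16, 11.18 and 11.54 in the 5 CL + AX livers and 10.52, 10.55, 10.72, 10.49 and 10.52 in the 5 CL + VE livers. Every CL + AX liver lay above every CL + VE liver, by a mean of 0.75 (SE 0.083, adjusted p = 0.00764). The gene passed in each of the 10 fits that left out 1 array, and 1 probe set reads it. In the model of all 20 arrays its adjusted p was 0.414, and there its level was 11.28 ± 0.19 (SD, n = 5) in CL + AX, 10.51 ± 0.09 in CL + VE, 10.73 ± 0.33 in CL and 11.21 ± 0.997 in NC, where the chow mice ranged from 10.17 to 12.25.

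Elovl2, the elongase that lengthens polyunsaturated fatty acids on the way to docosahexaenoic acid, rose by 0.40 (SE 0.063, adjusted p = 0.0488). The values were 12.35, 12.27, 12.54, 12.26 and 12.37 in CL + AX and 11.92, 11.99, 12.00, 12.01 and 11.88 in CL + VE. The groups were narrow and apart, but the gene passed in only 1 of the 10 fits with an array left out, and Tmed7 and Chic2 in 2 each. Tmed7, a cargo receptor of the early secretory pathway, rose by 0.45 (SE 0.069, adjusted p = 0.0461) in 1 of its 5 probe sets, from 10.08 to 10.46 in CL + VE to 10.70 to 10.77 in CL + AX. The other 4 differed by -0.24 to 0.23, the brightest of them by 0.10 (SE 0.094, adjusted p = 0.76). Chic2, a palmitoylated membrane protein, rose by 0.41 (SE 0.065, adjusted p = 0.0488) in 1 of its 4 probe sets, while the other 3 differed by -0.26 to 0.02.

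Of the 4 genes lower in CL + AX past the adjusted p, 3 had a signal above the median of all probe sets, and Noct differed most among these 3. It encodes nocturnin, a rhythmic phosphatase of NADPH with roles in lipid uptake. CL + AX livers gave 6.32, 6.33, 7.04, 7.59 and 6.57 and CL + VE livers 8.43, 8.41, 8.0, 8.77 and 8.22. All 5 CL + AX livers lay below the lowest CL + VE liver, with a fold change of -1.59 (SE 0.22, adjusted p = 0.0338). With 1 array left out the call mostly ended: Noct passed in 2 of the 10 fits, Sytl1 in 4, and Rnf149 and Slc22a18 in 1 each. With the 20 arrays normalized together its level was 10.04 ± 0.44 (SD, n = 5) in NC and 7.77 ± 0.71 in CL, beside 6.66 ± 0.55 in CL + AX and 8.28 ± 0.29 in CL + VE. Slc22a18, an organic cation transporter-like protein of an imprinted region, fell by 0.54 (SE 0.084, adjusted p = 0.0488): CL + AX livers gave 9.05 to 9.38 and CL + VE livers 9.64 to 9.97, while a second probe set differed by -0.26 (SE 0.14, adjusted p = 0.588). Rnf149, a membrane ubiquitin ligase, fell by 0.34 (SE 0.051, adjusted p = 0.0461), between 10.97 and 11.11 in CL + AX and between 11.33 and 11.43 in CL + VE. Sytl1, a Rab27-binding protein of granule exocytosis, had the largest difference of the 10 genes and fell by 2.49 (SE 0.34, adjusted p = 0.0307), from 4.93 to 5.56 in CL + VE to 1.58 to 3.26 in CL + AX. Its mean log2 signal of 3.94 is below the median of all probe sets, 4.36, so the size of its fall is imprecise.

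**Figure D2:**
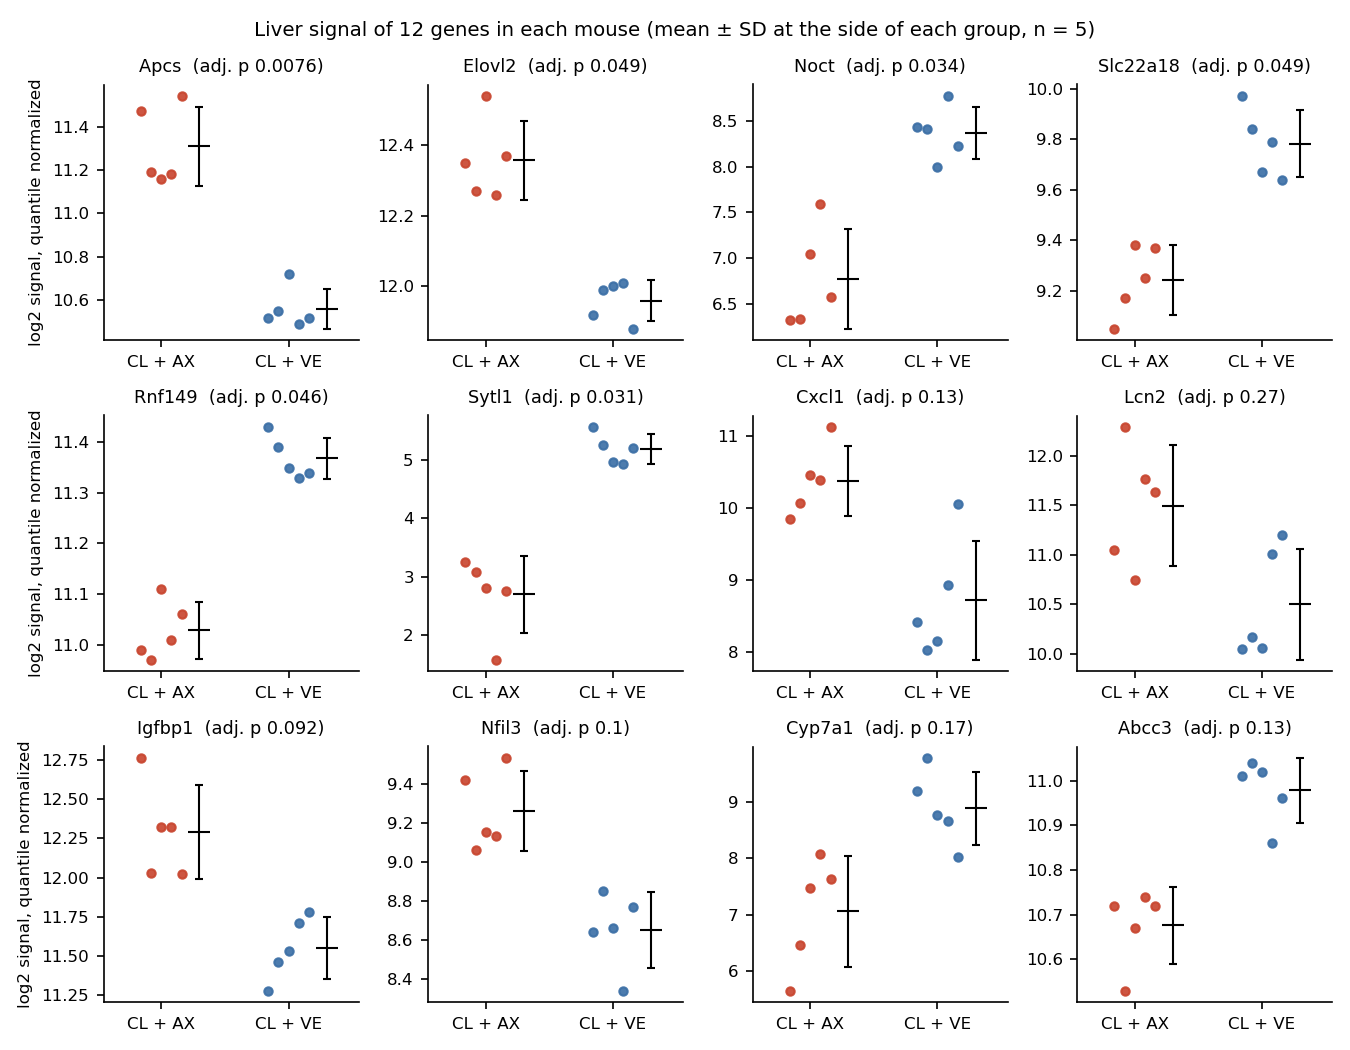
Quantile-normalized log2 signal of 12 genes in each of the 5 CL + AX (red) and 5 CL + VE (blue) livers, with the mean ± SD beside each group and the limma adjusted p in each title; each panel has its own axis. Apcs, Elovl2, Noct, Slc22a18, Rnf149 and Sytl1 passed an adjusted p of 0.05 and do not overlap, while Cxcl1, Lcn2, Igfbp1, Nfil3, Cyp7a1 and Abcc3 did not pass.

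Noct was read beside genes of the circadian clock, whose output factors Dbp and Tef activate, and Nfil3 represses, genes with a D-box. The 250 bases before the RefSeq start of Noct are shown because they match TTATGNAA, loose letters for a D-box in which N is any base. They lie on the plus strand at chr3:51224197-51224446 of GRCm38.p6 and are written 5' to 3', with the match on either strand in capitals:
Noct: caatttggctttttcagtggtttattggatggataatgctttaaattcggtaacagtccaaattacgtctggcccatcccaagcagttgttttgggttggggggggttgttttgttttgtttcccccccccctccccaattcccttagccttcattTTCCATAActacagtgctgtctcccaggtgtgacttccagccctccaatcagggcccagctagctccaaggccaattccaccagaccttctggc
The match, TTCCATAA, lies 94 to 87 bases before the start, and whether it works as a D-box was not tested. The same 8 letters occur, on either strand, in this window of 388 of the 14452 measured genes that have a promoter in the RefSeq table (2.68%) and of 2 of 16 clock genes. A match of letters is a description and not evidence of binding.

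Beside Noct, the clock's output genes had these levels. Nfil3, the repressor, was 9.42, 9.06, 9.15, 9.13 and 9.53 in CL + AX and 8.64, 8.85, 8.66, 8.34 and 8.77 in CL + VE. Its groups did not overlap and its mean was higher by 0.60 (SE 0.11), but its adjusted p was 0.105. Dbp, an activator, had 5.34, 6.52, 6.36, 6.21 and 6.66 in CL + AX and 7.28, 7.05, 6.17, 8.23 and 7.97 in CL + VE, a difference of -1.12 (SE 0.34, adjusted p = 0.292) in which CL + VE replicate 3 lay among the CL + AX livers. Tef differed by -0.25 (SE 0.10), with this sign in 1 of its 3 probe sets, and the clock repressor Per2 by -0.75 (SE 0.30), with adjusted p of 0.414 and 0.419. Of the 18 clock genes measured, none passed the adjusted p in limma, 1 had an unadjusted p under 0.05 with the higher mean in CL + AX and 4 with the lower, against 4.44% and 6.97% of all genes, and the list's median was -0.22 relative to the median of all genes. Cipc, a repressor of the CLOCK protein outside the list, was lower with no overlap, 8.43 to 8.66 against 8.90 to 9.22, and just missed the threshold (difference -0.48, SE 0.082, adjusted p = 0.0828). The hour at which each liver was taken is not given in the sources used here.

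The remaining calls higher in CL + AX were mostly probe sets that can also bind other transcripts. Such probe sets, marked _x_at by the manufacturer, make up 5.42% of all probe sets and 10 of the 24 called, all 10 higher in CL + AX. Among all of them 10.4% had an unadjusted p under 0.05 with the higher mean in CL + AX and 5.24% with the lower, and their median fold change was 0.04. Rps9, a protein of the small ribosomal subunit, rose by 0.68 (SE 0.074, adjusted p = 0.00764) in such a probe set, with 12.05, 12.20, 12.40, 12.08 and 12.23 in CL + AX and 11.34, 11.58, 11.54, 11.57 and 11.55 in CL + VE. A second Rps9 probe set of the same brightness differed by 0.12 (SE 0.056, adjusted p = 0.501). Nap1l1, a histone chaperone, rose by 0.90 (SE 0.11, adjusted p = 0.0118) in 1 of its 7 probe sets, and the other 6 differed by 0.06 to 0.31. Cnn3, an actin-binding calponin, rose by 0.94 (SE 0.10, adjusted p = 0.00764) in 1 probe set while its brightest differed by 0.09 (SE 0.078). Tlcd4, a membrane protein of the TLC domain family, rose by 1.21 in an _x_at probe set and by 0.95 in 1 without that mark. Its brightest probe set differed by 0.16 (SE 0.061, adjusted p = 0.396). These rises are therefore uncertain as rises of the named gene. Without the _x_at probe sets, an alternative chosen after seeing the data, 1 probe set, that of Apcs, passed.

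The cytokine and chemokine list also held some receptors and related genes such as Nfkbiz and Icam1. Of its 37 genes measured, 28 had the higher mean in CL + AX, and none passed the adjusted p with all arrays in limma. Cxcl1, a chemokine that recruits neutrophils, had 9.85, 10.07, 10.47, 10.40 and 11.13 in CL + AX and 8.42, 8.03, 8.16, 8.93 and 10.06 in CL + VE. Only CL + VE replicate 5 reached the CL + AX range, and the difference was 1.67 (SE 0.34, adjusted p = 0.127). Without that array, singled out after its value was seen, it was 2.00 (SE 0.23, adjusted p = 0.00835). Cxcl2, a chemokine of the same receptor, was 6.95, 7.14, 5.70, 6.26 and 6.56 in CL + AX and 5.33, 5.28, 5.46, 4.52 and 6.72 in CL + VE, a difference of 1.06 (SE 0.36, adjusted p = 0.334) with the same CL + VE liver inside the CL + AX range. Nfkbiz, an inducible cofactor of NF-κB, differed by 0.73 (SE 0.18, adjusted p = 0.198) and Il1b, the pyrogenic interleukin, by 0.57 (SE 0.19, adjusted p = 0.325). In the list 7 genes had an unadjusted p under 0.05 with the higher mean in CL + AX, against 4.44% of all genes, and 0 with the lower, and their median was 0.38 relative to all genes.

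Cxcl1 and Cxcl2 lie close together on chromosome 5 and both had higher means in CL + AX, so the 250 bases before each start are shown, on the plus strand at chr5:90890995-90891244 and chr5:90903649-90903898 of GRCm38.p6, 5' to 3', with matches to the NF-κB letters (GGG, any 3 bases, TTCC) on either strand in capitals:
Cxcl1: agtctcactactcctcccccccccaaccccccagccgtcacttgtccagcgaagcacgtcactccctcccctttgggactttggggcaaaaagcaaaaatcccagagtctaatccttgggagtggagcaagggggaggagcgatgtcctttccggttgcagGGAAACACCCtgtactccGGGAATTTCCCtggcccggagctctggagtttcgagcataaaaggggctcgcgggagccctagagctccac
Cxcl2: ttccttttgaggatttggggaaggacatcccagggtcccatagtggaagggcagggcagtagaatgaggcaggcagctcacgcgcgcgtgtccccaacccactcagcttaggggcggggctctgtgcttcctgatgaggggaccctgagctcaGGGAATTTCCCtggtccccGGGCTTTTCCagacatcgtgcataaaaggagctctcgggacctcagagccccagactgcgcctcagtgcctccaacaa
Both hold the run GGGAATTTCCC, in which the matches of the plus and the minus strand overlap, 71 to 61 bases before the start in Cxcl1 and 97 to 87 bases before it in Cxcl2, and each holds 1 further match. These letters occur in 832 of 14452 such windows (5.76%) and in 7 of 28 of the cytokine and chemokine list.

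Immediate early genes are transcribed within minutes of a stimulus, and 20 of 26 had the higher mean in CL + AX. Ier5 gave 7.83, 7.96, 7.29, 7.59 and 7.34 in CL + AX and 6.72, 6.78, 6.68, 6.67 and 7.49 in CL + VE, where replicate 5 again lay within the CL + AX range (difference 0.74, SE 0.18, adjusted p = 0.181). Junb differed by 0.82 (SE 0.24), Jun by 0.79 (SE 0.23), Jund by 0.39 (SE 0.13) and Fos by 1.5 (SE 0.57), with adjusted p of 0.271 to 0.396; these 4 are subunits of AP-1. Dusp1, a phosphatase of MAP kinases, differed by 0.72 (SE 0.27, adjusted p = 0.396). Jun lay at 9.69 to 9.99 in all CL + VE livers and spread from 9.99 to 11.56 in CL + AX, and Fos spread from 8.20 to 11.49 there. In the other direction, the growth arrest gene Gadd45a differed by -0.72 (SE 0.26, adjusted p = 0.368), and the transcription factor Myc by -0.80 (SE 0.33, adjusted p = 0.436). Among the 26 genes 0 passed in limma, 9 had an unadjusted p under 0.05 with the higher mean in CL + AX (4.44% of all genes) and 4 with the lower (6.97% of all genes), and the median was 0.47.

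Acute phase proteins gave differences of both signs. Besides Apcs, the LPS-binding protein Lbp differed by 0.31 (SE 0.085, adjusted p = 0.246) and Lrg1, a leucine-rich glycoprotein, by 0.20 (SE 0.056, adjusted p = 0.257) with 12.57 to 12.66 in CL + AX and 12.33 to 12.55 in CL + VE. Lcn2, the iron-siderophore binder lipocalin 2, was 11.05, 12.29, 10.74, 11.77 and 11.63 in CL + AX and 10.05, 10.17, 10.06, 11.01 and 11.20 in CL + VE, with overlap (difference 1.0, SE 0.29, adjusted p = 0.265). The serum amyloid genes Saa1 and Saa2 differed by 0.41 and 0.65, with adjusted p of 0.294 and 0.356. Hamp, which encodes the iron hormone hepcidin, pointed the other way, at 7.22 to 11.79 in CL + AX and 11.18 to 12.90 in CL + VE, a difference of -2.08 (SE 0.72, adjusted p = 0.351), with overlap and a wide spread in CL + AX. Of 25 genes 1 passed (0.055% of all genes). At an unadjusted p under 0.05, 8 had the higher mean in CL + AX (4.44% of all genes, 5.55% of genes at or above the median signal). With the lower mean there were 2, a share near the 6.97% of all genes. The median of 0.15 turned to -0.08 when arrays were scaled by 1 factor each. Lcn2 is shown as the acute phase gene with the largest positive difference; its 250 bases before the start lie on the minus strand at chr2:32387740-32387989 of GRCm38.p6, with the match to the C/EBP letters TTNNGCAA on either strand in capitals:
Lcn2: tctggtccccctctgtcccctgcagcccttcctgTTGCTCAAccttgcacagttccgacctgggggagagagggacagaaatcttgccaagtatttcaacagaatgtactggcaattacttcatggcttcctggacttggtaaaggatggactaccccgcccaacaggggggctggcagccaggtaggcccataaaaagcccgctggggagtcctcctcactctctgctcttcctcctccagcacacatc
The match lies 216 to 209 bases before the start. These letters, which can overlap a D-box, occur in 1394 of 14452 windows (9.65%) and in 13 of 22 acute phase genes.

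Of 11 neutrophil markers, 10 had the higher mean in CL + AX. Only 5 of the 11 had a mean log2 signal at or above the median of all probe sets, 4.36, so the sizes of the other differences are imprecise. Ngp, a granule protein, was 5.96, 4.99, 5.65, 7.29 and 4.77 in CL + AX and 4.46, 4.06, 3.60, 3.61 and 4.25 in CL + VE, apart but not past the adjusted p (difference 1.74, SE 0.41, adjusted p = 0.177). S100a8 and S100a9, the subunits of calprotectin, differed by 1.57 (SE 0.44, adjusted p = 0.246) and 1.25 (SE 0.40, adjusted p = 0.314), with their highest values, 9.73 and 8.77, in CL + AX replicate 4. Among these markers 3 had an unadjusted p under 0.05, all with the higher mean in CL + AX (4.44% of all genes), and their mean log2 signal ran from 4.11 to 5.89 in CL + AX and from 4.08 to 4.63 in CL + VE. The defining receptor Csf3r differed by 0.08 (SE 0.18, adjusted p = 0.921). In whole liver, fewer cells of a type and less RNA per cell cannot be told apart. The mean signal of 25 macrophage and Kupffer cell markers ran from 8.31 to 9.39 in CL + AX and from 8.09 to 9.19 in CL + VE, with 1 at an unadjusted p under 0.05, Cd14 (difference 0.75, SE 0.33, adjusted p = 0.475). Markers of lipid-laden macrophages singled out CL + VE replicate 5 within its group, with Gpnmb at 11.17 against 7.21 to 7.92 and Trem2 at 7.99 against 3.20 to 4.80. Of 16 endothelial markers 15 had the lower mean in CL + AX, 4 at an unadjusted p under 0.05. The share was 6.97% of all genes and 9.06% of genes at or above the median signal. Among the 4 was Clec4g, a lectin of sinusoidal endothelium, by -0.34 (SE 0.11, adjusted p = 0.332). The endothelial list's mean signal was 7.07 to 7.40 in CL + AX and 7.12 to 7.61 in CL + VE. The part of cell makeup in the differences of inflammation genes was not tested.

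**Figure D3:**
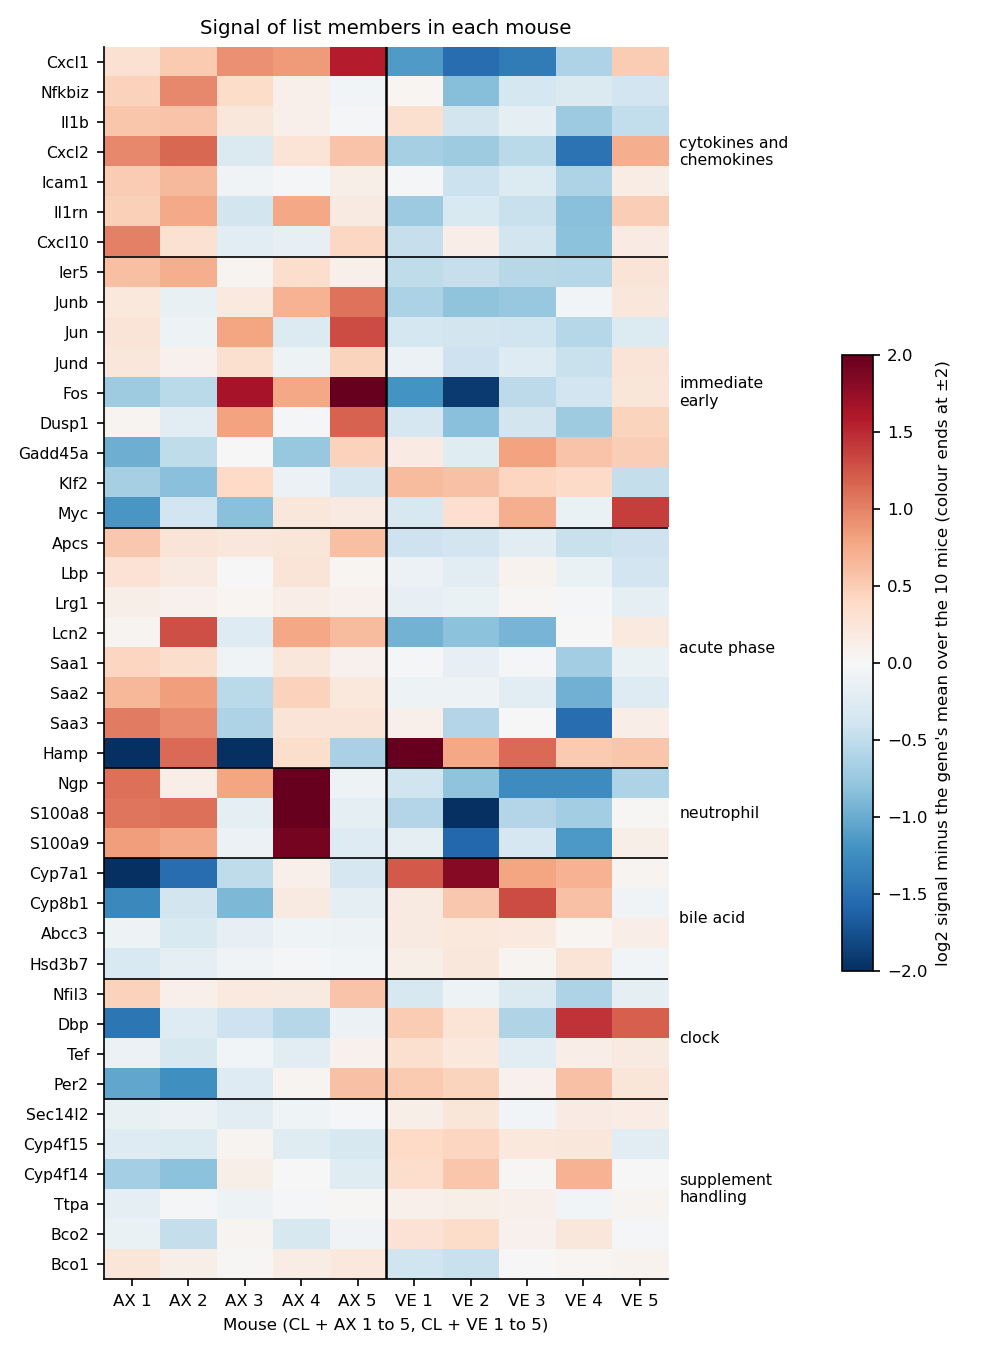
Log2 signal of list members in each of the 10 livers, minus the gene's own mean over the 10 (red above, blue below, colour ending at ±2), with the CL + AX mice left of the line and the CL + VE mice right of it. The cytokine, neutrophil and bile acid rows are the members with the smallest p of their lists, so their colours do not describe the whole lists. These cytokine and neutrophil rows are redder on the left, most of all Ngp, S100a8 and S100a9 in CL + AX replicate 4. The bile acid rows are bluer on the left, and CL + VE replicate 5 resembles CL + AX livers for Cxcl1, Cxcl2 and Ier5.

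Leaving out CL + VE replicate 5 changed many of these calls. Its values for Cxcl1, Cxcl2 and Ier5, which lay within the CL + AX range, were known when this fit was picked for description. Dropping the array favours a smaller p for such genes. The p values and shares without it are therefore descriptive and not a separate test. Without replicate 5, 55 genes passed the adjusted p in place of 10 (0.302%), 32 higher and 23 lower in CL + AX, and 9 list members did in place of 3. Besides Cxcl1 and Ier5, these included Mmp12, the macrophage elastase, which was 6.21 to 6.52 in the other 4 CL + VE livers, 9.65 in replicate 5 and 7.18 to 9.54 in CL + AX (difference 1.5, SE 0.59, adjusted p = 0.414 with all arrays; 2.14, SE 0.34, adjusted p = 0.0355 without it). Igfbp1, which insulin represses, and the hormone Fgf21 differed by 0.795 (adjusted p = 0.0444) and 1.57 (adjusted p = 0.0453) without it. Socs3, the feedback inhibitor of interleukin 6 signalling, differed by 1.07 (adjusted p = 0.352) with all arrays and by 1.52 (SE 0.14, adjusted p = 0.00188) without it, and Zfp36l2, an mRNA decay factor, by 1.02 (adjusted p = 0.127) and 1.25 (SE 0.11, adjusted p = 0.00188); these were named after their values were seen. Without this array, 14 of 37 cytokine and chemokine genes and 12 of 32 collagen and matrix genes had an unadjusted p under 0.05 with the higher mean in CL + AX, against 6.21% of all genes, and 0 and 2 with the lower mean, against 8.75%. With all arrays the collagen and matrix list had 1 of 32 with the higher mean, Mmp12, and 1 with the lower, Timp3. The shares of all genes were then 4.44% and 6.97%. No label marks this mouse as different from the others of its group.

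Most genes of bile acid synthesis and transport, 21 of 28, had the lower mean in CL + AX. Cyp7a1, the rate-limiting enzyme, gave 5.64, 6.46, 7.47, 8.08 and 7.64 in CL + AX and 9.21, 9.79, 8.77, 8.67 and 8.03 in CL + VE. The ranges met only at 1 liver of each group, and the difference was -1.84 (SE 0.42, adjusted p = 0.168). Cyp8b1, which makes cholic acid, was 8.45, 9.37, 8.84, 9.91 and 9.55 in CL + AX and 9.92, 10.27, 11.04, 10.32 and 9.66 in CL + VE (difference -1.02, SE 0.28, adjusted p = 0.235). Abcc3, an exporter of bile acid conjugates to the blood, did not overlap, at 10.53 to 10.74 against 10.86 to 11.04 (difference -0.30, SE 0.061, adjusted p = 0.127). Hsd3b7, the next enzyme after Cyp7a1, differed by -0.25 (SE 0.076, adjusted p = 0.286). In this list 0 passed in limma, 5 had an unadjusted p under 0.05 with the lower mean in CL + AX (6.97% of all genes, 9.06% of the brighter ones) and 1, the canalicular exporter Abcc2, with the higher (4.44% of all genes), and the median was -0.07. With 20 arrays normalized together Cyp7a1 had 10.70 ± 0.98 (SD, n = 5) in NC and 8.0 ± 1.25 in CL, beside 6.95 ± 1.01 in CL + AX and 8.82 ± 0.67 in CL + VE.

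**Figure D4:**
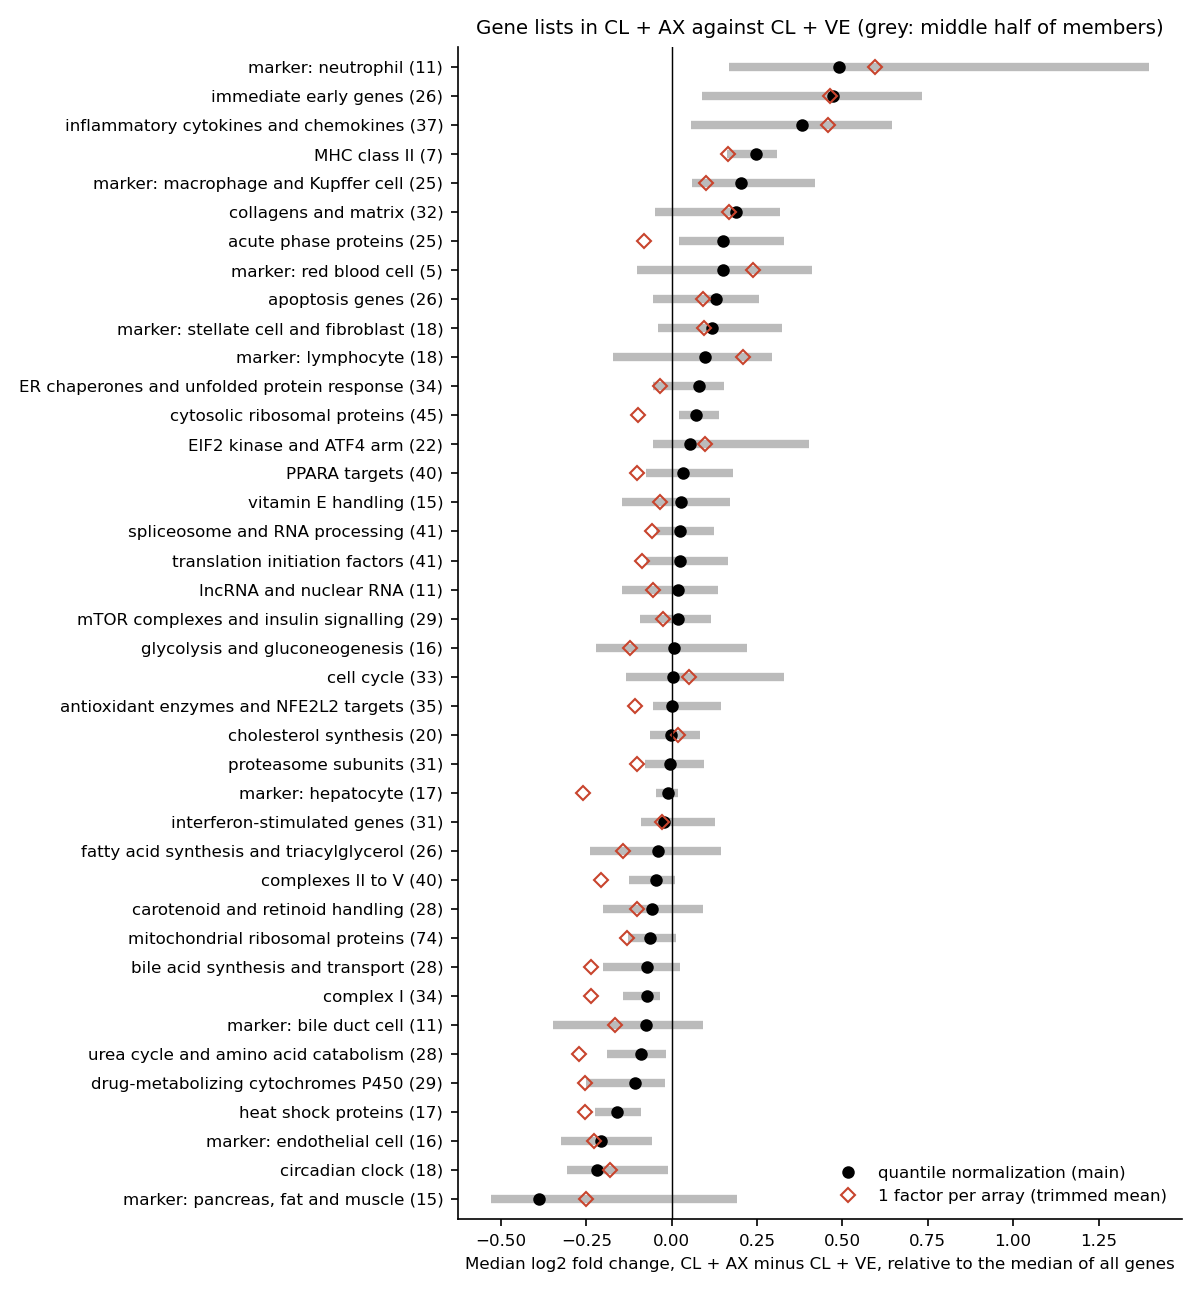
Median log2 fold change of CL + AX minus CL + VE for each gene list, after taking off the median of all genes (the number measured is in brackets); grey bars span the members' interquartile range, dots are quantile-normalized values and diamonds those after scaling by 1 factor per array. Neutrophil markers (0.49), immediate early genes (0.47) and cytokines and chemokines (0.38) lie highest under quantile normalization. Of the 11 neutrophil markers only 5 are at or above the median signal. Lists of bright genes shift to the left, acute phase proteins from 0.15 to -0.08, when arrays are scaled by 1 factor.

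The drug metabolism list held cytochromes and the receptors Nr1i2, Nr1i3 and Ahr. Of its 29 genes, 25 had the lower mean in CL + AX, with a list median of -0.11. Cyp2b10, the classical target of the receptor CAR, was 3.41 to 5.96 in CL + AX and 5.67 to 8.49 in CL + VE (difference -1.95, SE 0.56, adjusted p = 0.261), and Cyp2j6 was 7.33 to 7.78 and 7.72 to 8.44 (difference -0.50, SE 0.14, adjusted p = 0.235). None of the 29 passed in limma. At an unadjusted p under 0.05, 6 had the lower mean in CL + AX (6.97% of all genes, 9.06% of the brighter ones). The higher mean at such a p was seen for 1, Cyp3a13 (4.44% and 5.55%). In lipid synthesis, Elovl2 aside, Thrsp, a lipogenic gene that answers thyroid hormone and carbohydrate, was 7.65, 7.01, 8.21, 7.26 and 8.30 in CL + AX and 8.86, 9.58, 8.49, 9.87 and 8.05 in CL + VE (difference -1.28, SE 0.33, adjusted p = 0.217). Dgat2, which makes triacylglycerol, differed by -0.23 (SE 0.068, adjusted p = 0.265) and the elongase Elovl6 by -0.42 (SE 0.13, adjusted p = 0.319). The 26 genes of fatty acid synthesis and triacylglycerol had 2 at an unadjusted p under 0.05 with the higher mean, Elovl2 and the desaturase Fads1. With the lower mean there were 5 (4.44% and 6.97% of all genes, 5.55% and 9.06% of the brighter ones).

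The list of mTOR complexes and insulin signalling, 29 genes, had 0 calls in limma, 3 genes at an unadjusted p under 0.05 in each direction (4.44% and 6.97% of all genes) and a median of 0.02, which was -0.03 with 1 factor per array. Igfbp1, an insulin-repressed binding protein of the IGFs, gave 12.76, 12.03, 12.32, 12.32 and 12.02 in CL + AX and 11.28, 11.46, 11.53, 11.71 and 11.78 in CL + VE. The groups did not overlap, with a difference of 0.74 (SE 0.13, adjusted p = 0.0922). Irs2, the insulin receptor substrate that insulin represses, was 7.02, 6.23, 6.58, 6.21 and 6.84 in CL + AX and 5.27 to 5.84 in CL + VE, again with no overlap (difference 0.91, SE 0.18, adjusted p = 0.127). The third of the higher ones was Sesn1, a stress-induced inhibitor of mTORC1 (difference 0.29, SE 0.095, adjusted p = 0.315). On the lower side were the insulin-restrained transcription factors Foxo1 (difference -0.41, SE 0.14, adjusted p = 0.334) and Foxo3 (difference -0.47, SE 0.17, adjusted p = 0.356) and the receptor substrate Irs1 (difference -0.27, SE 0.093, adjusted p = 0.351). From other lists, Fgf21, a fasting hormone, was 8.75, 8.44, 7.99, 8.53 and 9.21 in CL + AX and 6.64, 7.47, 7.62, 6.31 and 8.64 in CL + VE (difference 1.25, SE 0.36, adjusted p = 0.261). Pck1, the gatekeeper of gluconeogenesis, differed by 0.28 (SE 0.089, adjusted p = 0.319), while Slc37a4, the glucose 6-phosphate transporter, differed by -0.33 (SE 0.11, adjusted p = 0.325).

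For genes whose proteins handle the supplements themselves, the data were as follows. Ttpa, the tocopherol transfer protein, was 12.85 to 13.05 in CL + AX and 12.98 to 13.15 in CL + VE (difference -0.14, SE 0.057, adjusted p = 0.447). Cyp4f14, which starts the breakdown of the vitamin E side chain by omega-hydroxylation in mice, gave 8.35, 8.21, 9.14, 9.04 and 8.79 in CL + AX and 9.38, 9.58, 9.05, 9.73 and 9.03 in CL + VE (difference -0.65, SE 0.19, adjusted p = 0.262). Its neighbour in the family, Cyp4f15, gave 10.21 to 10.58 and 10.30 to 10.95 (difference -0.41, SE 0.12, adjusted p = 0.246; -0.52, SE 0.085, adjusted p = 0.0357 without CL + VE replicate 5). The fit without that array is descriptive here too. Sec14l2, a tocopherol-associated protein, differed by -0.24 (SE 0.063, adjusted p = 0.210). Of 15 genes in the vitamin E list 0 passed in limma and 5 had an unadjusted p under 0.05. All 5 had the lower mean in CL + AX (6.97% of all genes, 9.06% of the brighter ones). Among the 5 was Coq7, a gene of ubiquinone synthesis. The median of the list was 0.03 and turned to -0.03 with 1 factor per array. Among 28 genes of carotenoids and retinoids, Bco2, which cleaves xanthophylls at the eccentric bond, was 7.65 to 8.18 in CL + AX and 8.11 to 8.49 in CL + VE (difference -0.38, SE 0.11, adjusted p = 0.261), and this list had 1 gene at an unadjusted p under 0.05 with the higher mean and 3 with the lower, near the 5.55% and 9.06% of brighter genes, and a median of -0.06. Bco1, which cleaves beta-carotene at the centre, was 6.28 to 6.50 and 5.81 to 6.33 (difference 0.30, SE 0.13, adjusted p = 0.483).

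Most mitochondrial genes had a slightly lower mean in CL + AX. Of 34 subunits of complex I, 29 had the lower mean in CL + AX. Among the 34, 10 had this direction and an unadjusted p under 0.05 (6.97% of all genes, 9.06% of brighter genes). The list had 0 past the adjusted p in limma and a median of -0.07. Ndufb3 did not overlap, at 10.09 to 10.25 against 10.31 to 10.60 (difference -0.28, SE 0.066, adjusted p = 0.177). Complexes II to V had 33 of 40 with the lower mean, 11 of them at an unadjusted p under 0.05 (9.06% of brighter genes), and a median of -0.05. With the higher mean, 1 gene had such a p (5.55%). Cox5b lay at 12.33 to 12.41 against 12.51 to 12.59 (difference -0.18, SE 0.048, adjusted p = 0.219). Of 74 mitochondrial ribosomal proteins 61 had the lower mean, 14 of them at an unadjusted p under 0.05 (9.06% of brighter genes), with a median of -0.06. The smallest p of this list went the other way: Mrpl33 was higher with no overlap (difference 0.52, SE 0.097, adjusted p = 0.110). Outside these lists Vdac1, the outer membrane channel that passes ATP, was 10.85 to 11.02 in CL + AX and 11.20 to 11.28 in CL + VE (difference -0.29, SE 0.052, adjusted p = 0.0922). The urea cycle and amino acid catabolism had 8 of 28 genes at an unadjusted p under 0.05, all 8 with the lower mean in CL + AX (9.06% of genes at or above the median signal), among them the transaminase Gpt (difference -0.40, SE 0.10, adjusted p = 0.217), and a median of -0.09. The heat shock list had 7 of 17, also all with the lower mean (9.06%), with Hspa4 at 9.31 to 9.43 against 9.55 to 9.69 (difference -0.25, SE 0.057, adjusted p = 0.170), and a median of -0.16. With 1 factor per array all these medians, mitochondrial, urea cycle and heat shock, were more negative, at -0.13 to -0.27. Other lists of bright genes shifted the same way, hepatocyte markers from -0.01 to -0.26. The shift therefore adds nothing on these lists.

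Translation and the endoplasmic reticulum showed no shared direction that held under every scaling. Of 41 translation initiation factors 8 had an unadjusted p under 0.05 with the higher mean in CL + AX and 2 with the lower (5.55% and 9.06% of brighter genes), Eif3b by 0.25 (SE 0.070, adjusted p = 0.236) and Eif2b4 by -0.33 (SE 0.097, adjusted p = 0.265), and the median of 0.03 became -0.09 with 1 factor per array. Of 45 cytosolic ribosomal proteins 1, Rps9, passed (0.055% of all genes), in an _x_at probe set that can also bind other transcripts. At an unadjusted p under 0.05, 5 had the higher mean in CL + AX and 1 the lower (5.55% and 9.06% of brighter genes). The median of this list, 0.07, became -0.10. Of 34 genes of endoplasmic reticulum chaperones and the unfolded protein response, 21 had the higher mean in CL + AX. Of the 34, 5 had an unadjusted p under 0.05 with the higher mean and 0 with the lower (5.55% and 9.06% of brighter genes). Among the 5 was the lectin chaperone Canx (difference 0.22, SE 0.057, adjusted p = 0.207). The list's median of 0.08 became -0.03.

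Antioxidant genes, the shared purpose of both supplements, had a median of 0.00 over 35 members, which became -0.11 with 1 factor per array, and 0 passed in limma. Gclm, the modifier subunit of the enzyme that starts glutathione synthesis, did not overlap, at 11.23 to 11.64 in CL + AX and 10.94 to 11.18 in CL + VE (difference 0.32, SE 0.083, adjusted p = 0.224). Gsta2, a glutathione transferase, differed by -0.59 (SE 0.18, adjusted p = 0.292), and Cat, catalase, by 0.18 (SE 0.065, adjusted p = 0.357). The regulator of these genes, Nfe2l2, was 10.04 to 10.57 and 9.90 to 10.47 (difference 0.14, SE 0.11, adjusted p = 0.728). Targets of PPARA, the receptor for fatty acids, had 5 of 40 at an unadjusted p under 0.05 with the higher mean in CL + AX, Fgf21 among them, and 3 with the lower (5.55% and 9.06% of brighter genes), the dienoyl-CoA reductase Decr1 among them (difference -0.20, SE 0.060, adjusted p = 0.275). Their median of 0.03 became -0.10 with 1 factor per array. Ppara itself differed by -0.02 (SE 0.10, adjusted p = 0.965), Ppard by -0.34 (SE 0.22, adjusted p = 0.630) and Rxra by -0.08 (SE 0.067, adjusted p = 0.733). Some further genes were also measured by qPCR in the study. The insulin-signalling kinase Akt2 differed by -0.12 (SE 0.072, adjusted p = 0.595), the desaturase Scd1 by -0.04 (SE 0.047, adjusted p = 0.840) and Cpt1a, the gate of mitochondrial fat oxidation, by 0.01 (SE 0.090, adjusted p = 0.984; -0.09 with trimmed-mean scaling). Rictor, a partner of mTOR, differed by 0.04 (SE 0.099, adjusted p = 0.937) and Il6 by 0.93 (SE 0.86, adjusted p = 0.763) at a signal near background, with CL + VE replicate 5 at -1.71 on the log2 scale and the other 9 livers at 2.27 to 3.85.

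**Figure D5:**
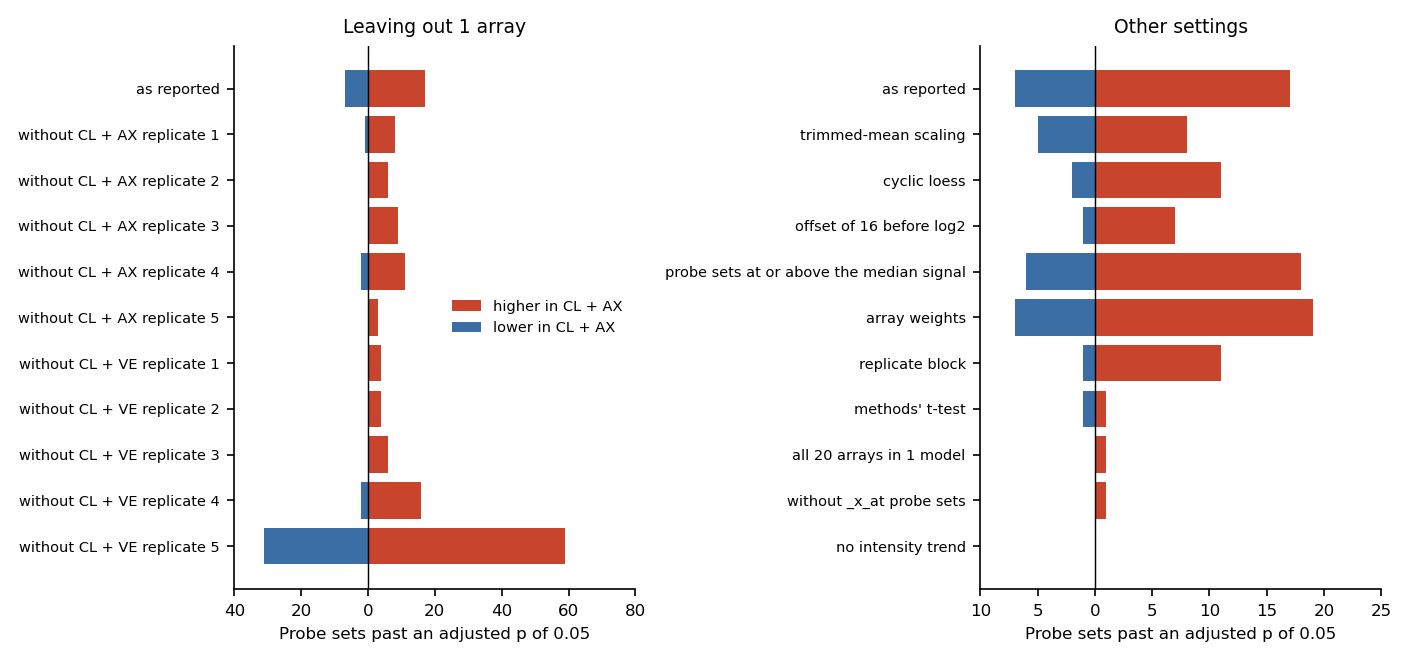
Probe sets whose adjusted p was under 0.05, counted as higher (red, to the right) and lower (blue, to the left) in CL + AX, when 1 array is left out (left panel) and under other settings (right panel); the panels have different axes. Leaving out CL + VE replicate 5 gave 90 calls and leaving out CL + AX replicate 5 gave 3, against 24 as reported.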

How the data were processed

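Liver RNA of each mouse was labelled with a 3' IVT kit and hybridized by the authors to an Affymetrix Mouse Genome array, and the authors deposited MAS5 signals, linear intensity values per probe set that are not scaled to a common level between arrays. The depth of an array has no count, so the number of mice limits the precision. The log2 signals of the 10 arrays were quantile normalized here, and 45037 probe sets (64 control probe sets left out) were fitted in limma 3.58.1 (R 4.3.3) with 8 residual degrees of freedom, a variance prior that follows the signal, and Benjamini-Hochberg adjustment over all of them at 0.05. A probe set was named from the platform annotation: 34945 named 1 gene, 932 several and 9160 none. The brightest probe set that names a gene alone stood for it. Array measures were compared by an exact permutation test.

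The members and the 41 gene lists were chosen with earlier results of these data known; 1034 of 1155 list symbols were measured. A list is described by counts and by its median fold change minus that of all genes. Genes named are those past the threshold, up to 4 of each list by p, genes the study measured by qPCR or names as regulators, and Ttpa, Bco1 and Bco2; others were named after their values were seen. Alternatives were the scaling (none, median, trimmed mean, cyclic loess), an offset before log2, a filter on dim probe sets, the variance prior, array weights, all 20 arrays in 1 model, the methods' t-test, the replicate number as a block, the mean of a gene's probe sets and leaving out each array. Promoters are RefSeq sequences of GRCm38.p6. The fit was tested on simulated data, and Python 3.11.15, pandas 2.3.3 and matplotlib 3.10.9 made the rest.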

Additional observations from a re-analysis of the deposited data

Results flagged for a closer look

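Within groups of 5, 14 of 214 gene and array measures had 1 liver far from the other 4, against about 1 in 20, or 10.7, by chance. CL + VE replicate 5 stood apart for Gpnmb (11.17), Ier5 (7.49), Mmp12 (9.65), Socs3 (10.07), Il6 (-1.71) and the Dap 3'/5' ratio (2.26, log2). Among the other CL + VE livers, Rps9 was 11.34 and Igha 4.31 in replicate 1, Apcs was 10.72 in replicate 3, and Cat (13.06), Saa1 (12.06) and Saa2 (10.49) stood apart in replicate 4. In CL + AX, replicate 3 stood apart for Cyp4f15 (10.58) and for the hybridization controls (9.61, mean log2 signal).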

How the results depend on the processing

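The count of calls followed the scaling of the arrays. Without scaling, 10953 probe sets passed, 10903 higher and 50 lower in CL + AX, with 5191 genes and 365 list members; the median of all genes was then 0.38 on the log2 scale. Median centring gave 1984 probe sets, 57 higher and 1927 lower, with 1320 genes and 257 list members, around a median of all genes of -0.17. Trimmed-mean scaling gave 13 probe sets, 8 higher, and cyclic loess 13, 11 higher and 2 lower. An offset before log2 gave 8, 7 higher and 1 lower, with 4 genes. A variance prior without the trend gave 0 probe sets, genes and list members (3772 probe sets at an unadjusted p under 0.05). The model of all 20 arrays gave 1 probe set, higher, and 0 genes and 0 list members (4017 probe sets at an unadjusted p under 0.05). The methods' t-test gave 2 probe sets after adjustment, 1 higher and 1 lower, 2 genes and 0 list members (3844 probe sets at an unadjusted p under 0.05). Of the 24 probe sets as reported, 0 passed that t-test. Without _x_at probe sets, chosen after seeing the data, 1 probe set and 1 gene passed, higher, and 0 lower. The mean of a gene's probe sets gave 4 genes and 1 list member. The replicate block gave 12 probe sets, 11 higher and 1 lower, and 6 genes; same-numbered arrays correlated at -0.0231 to 0.04 in their deviations and 2 of 5 correlated best with their own number, so the numbers do not pair the mice. Leaving out 1 array gave 3 to 90 probe sets, 3 to 59 higher and 0 to 31 lower, 2 to 55 genes and 2 to 9 list members, the highest without CL + VE replicate 5 and the fewest probe sets without CL + AX replicate 5. Near-zero differences changed sign: Cnn3 to -0.057 without scaling and after median centring and -0.021 after scaling by trimmed means, Cpt1a to -0.125, -0.125 and -0.089 under the same settings. With 1 array left out, Cpt1a ranged from -0.049 to 0.062, Csf3r from -0.034 to 0.186, Ppara from -0.132 to 0.024, Rictor from -0.009 to 0.108 and Il6 from -0.013, without CL + VE replicate 5, to 1.288. The cause was not tested. For the 97 genes named, 1895 values under other settings kept direction and side of the threshold, 119 were no longer past it, 91 came past it and 19 changed sign. The median SE of 0.207 limits what 5 mice a group can show.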

Other observations

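Some genes outside the comparisons above stood close to the threshold. Slc25a25, a calcium-regulated ATP carrier of mitochondria, had 9.28, 8.40, 8.63, 8.72 and 8.93 in CL + AX and 8.04, 7.23, 8.28, 7.96 and 8.05 in CL + VE (difference 0.88, SE 0.19, adjusted p = 0.147 in limma). As the mean of its 3 probe sets it differed by 1.12 (SE 0.13, adjusted p = 0.0164). Igha, the constant chain of immunoglobulin A, lay at 6.58 to 7.81 in CL + AX and 4.31 to 5.86 in CL + VE (difference 1.74, SE 0.30, adjusted p = 0.0828), while 0 of 18 lymphocyte markers passed in limma or had an unadjusted p under 0.05. Upp2, the liver uridine phosphorylase, differed by -1.05 (SE 0.29, adjusted p = 0.247) in its brightest probe set, and its dimmest passed with a difference of -3.28 at a mean log2 signal of 2.25.

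The lists that follow had no member past the adjusted p in limma and are given by their counts at an unadjusted p under 0.05, beside 4.44% of all genes higher and 6.97% lower in CL + AX. Interferon-stimulated genes had 2 of 31 higher and 3 lower, cholesterol synthesis 0 of 20 higher and 1 lower, proteasome subunits 2 of 31 and 5, cell cycle genes 1 of 33 and 3, apoptosis genes 1 of 26 and 3, and genes of the spliceosome and RNA processing 6 of 41 and 2. Glycolysis and gluconeogenesis had 4 of 16 in each direction, the ATF4 arm of the stress response 2 of 22 higher and 1 lower, and nuclear RNAs 2 of 11 and 1. MHC class II had 0 of 7 in either direction with a median of 0.25. Stellate cell markers had 0 of 18, bile duct markers 1 of 11 higher and 2 lower, and red blood cell markers 0 of 5 higher and 1 lower.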
